A study of Mus musculus with 2 samples.

Results

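Cycling ureter mesenchyme is the set of nuclei from newborn mouse ureter that carried transcripts of both stromal or smooth muscle genes and genes of cell division. The nuclei considered had at least 300 genes, with no more than 5% of their transcripts mitochondrial. A nucleus was mesenchymal when it had a unique molecular identifier (UMI, 1 captured RNA molecule) of at least 2 of Myh11, Myocd, Synpo2, Cacna2d3, Rbm24, Adam12, Nkain3, Col14a1, Col1a2, Col3a1, Pdgfra and Lama2, of at most 1 of Ptprb, Pecam1, Flt1 and Emcn, and of at most 1 of Cdh1, Epcam, Grhl2, Elf3, Esrp1, Macc1, Ehf and Myo5b. It was cycling when it also had a UMI of at least 2 of Mki67, Top2a, Cenpf, Kif11 and Aspm. The rule found 465 nuclei among the 14590 deposited, 222 in DNp63cKO ureters and 243 in control ureters. The nuclei were thus chosen by the measured UMIs of these genes in the same libraries, so their levels below are a description and support nothing.

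The ureter wall forms around an epithelial tube, the urothelium, from a mesenchyme that gives rise to smooth muscle cells and to the fibroblasts of the inner and outer connective tissue. The urothelium secretes hedgehog and Wnt ligands that keep the surrounding mesenchyme dividing and start its differentiation, and retinoic acid and BMP signals take part as well. In dividing cells, replication genes are transcribed from late G1 into S phase and mitotic genes from S into G2 and M phase. Mitotic genes are switched on through promoter elements called the CHR and the CCAAT box. ΔNp63 is the isoform of p63 (gene Trp63) found in basal cells of layered epithelia.

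One library came from a pool of 14 DNp63cKO mice with the genotype Pax2-cre/+; DNp63fl/fl; R26mTmG/+, and the other from a pool of 13 control mice, labelled wt, all at postnatal day 0. Pax2-cre acts in derivatives of the nephric duct, including the ureter epithelium, and R26mTmG is a fluorescent reporter of its action, so driver and reporter may differ between the pools along with the deletion. Flash-frozen ureters were pooled by genotype and single nuclei were captured with barcoded beads in a microwell chip. With 1 library per genotype there is no replicate: the genotype and the pool cannot be told apart, no test was made, and intervals in brackets are exact 95% intervals that cover counting error only.

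The DNp63cKO library held 5528 nuclei with 9859451 UMIs and the control library 9062 nuclei with 16063644 UMIs. Of these, 5491 DNp63cKO and 8889 control nuclei passed the filter, and 2602 and 2929 were mesenchymal. Cycling nuclei held 457837 UMIs in DNp63cKO, with a median of 1554.5 per nucleus and a range of 511 to 10756, and 444171 UMIs in control, with a median of 1310 and a range of 500 to 13007. Mesenchymal nuclei with none of the 5 cycling rule genes, called non-cycling below, were shallower, with medians of 1027 UMIs in DNp63cKO and 830 in control. The libraries shared 58 barcodes, 4 of which belonged to cycling nuclei, and none was a cycling nucleus in both. Trp63 itself had 106 CPM (UMIs scaled to a common class total) in epithelial nuclei of DNp63cKO and 152 CPM in those of control, where an epithelial nucleus has 3 or more of the 8 epithelial rule genes. These counts cover the whole gene and so do not check a deletion of its ΔN part.

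The promoters of the genes that mark cycling nuclei share the 2 short elements named above, and the sequences of Mki67 and Top2a, which chose the nuclei, and of Ccnb2 and Racgap1, which did not and are described below, show this. The sequences are RefSeq's for GRCm38.p6, written 5′ to 3′ on the strand of the gene from 250 bases before to 50 bases after the annotated start. Capitals mark TTTGAA, the letters searched for the CHR, and CCAAT, each on both strands, so that TTCAAA and ATTGG are also in capitals. The 2 sets of letters can overlap by at most 1 base. Mki67 lies at chr7:135716330-135716629 on the minus strand, Top2a at chr11:99024140-99024439 on the minus strand, Ccnb2 at chr9:70421505-70421804 on the minus strand and Racgap1 at chr15:99651607-99651906 on the minus strand.
Mki67: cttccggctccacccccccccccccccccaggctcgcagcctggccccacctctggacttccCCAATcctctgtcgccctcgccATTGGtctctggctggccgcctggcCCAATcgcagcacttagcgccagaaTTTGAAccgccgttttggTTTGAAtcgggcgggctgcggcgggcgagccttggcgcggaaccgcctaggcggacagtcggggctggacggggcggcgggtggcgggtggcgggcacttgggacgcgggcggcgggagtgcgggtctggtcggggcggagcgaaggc
Top2a: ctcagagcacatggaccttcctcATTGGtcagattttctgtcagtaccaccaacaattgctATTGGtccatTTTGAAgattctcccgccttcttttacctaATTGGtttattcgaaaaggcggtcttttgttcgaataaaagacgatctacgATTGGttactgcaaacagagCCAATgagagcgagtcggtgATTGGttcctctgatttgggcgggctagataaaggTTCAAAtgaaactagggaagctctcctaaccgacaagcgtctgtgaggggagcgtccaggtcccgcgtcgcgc
Ccnb2: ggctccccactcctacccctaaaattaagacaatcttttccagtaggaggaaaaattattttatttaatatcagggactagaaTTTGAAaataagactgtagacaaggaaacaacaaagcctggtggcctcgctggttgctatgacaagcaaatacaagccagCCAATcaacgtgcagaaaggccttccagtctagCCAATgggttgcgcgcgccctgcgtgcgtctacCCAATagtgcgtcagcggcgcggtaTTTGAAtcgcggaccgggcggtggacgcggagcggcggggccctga
Racgap1: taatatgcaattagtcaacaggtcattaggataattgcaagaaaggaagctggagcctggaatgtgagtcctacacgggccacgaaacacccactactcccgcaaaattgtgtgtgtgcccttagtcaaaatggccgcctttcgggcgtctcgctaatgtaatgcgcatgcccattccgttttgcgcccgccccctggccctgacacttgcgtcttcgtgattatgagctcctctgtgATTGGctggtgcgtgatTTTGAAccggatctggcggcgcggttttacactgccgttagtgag

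TTTGAA was present in the promoters of all 5 cycling rule genes and in 34 of the 48 RefSeq promoters (70.8%) found for 45 of the 53 genes of the mitosis list, against 17.9% of all 32851 promoters of this length. It was in 13.3% of the 45 promoters of the DNA replication list and in 12.5% of the 32 promoters of the contractile list. CCAAT was in 66.7% of the mitosis promoters, in 27 of the 45 replication promoters and in 37.4% of all promoters. Both stood together in 54.2% of the mitosis promoters and 6.95% of all. In Ccnb2, one TTTGAA begins 5 bases after the start, and in Racgap1 6 bases after it. A match is a description of letters in this window and not a shown binding site.

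The 5 cycling genes encode proteins of chromosome condensation, spindle and centromere: Mki67 a chromosome surface protein, Top2a a DNA topoisomerase, Cenpf a kinetochore protein, Kif11 a spindle motor and Aspm a spindle pole protein. Top2a had a UMI in 74.3% of cycling nuclei in DNp63cKO and 73.7% in control, and Mki67 in 67.1% and 68.3%. Urothelial cells divide too, and Top2a had a UMI in 20.3% of epithelial nuclei in DNp63cKO and 16.2% in control, at deeper medians of 2299 and 2450 UMIs. Cenpf followed with 42.3% in DNp63cKO and 42.8% in control, Kif11 with 31.1% and 33.3%, and Aspm with 23.4% and 23.5%. Most cycling nuclei were just inside the threshold: 154 of 222 in DNp63cKO and 160 of 243 in control had exactly 2 of the 5 genes, and 1 and 3 nuclei had all 5. Just outside it, 530 mesenchymal nuclei of DNp63cKO (20.4%) and 572 of control (19.5%) had exactly 1.

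Both stromal and muscle genes of the rule were present in the cycling nuclei. Col3a1, a fibrillar collagen chain, had 3091 CPM in DNp63cKO and 4183 CPM in control cycling nuclei, and 913 and 937 CPM in epithelial nuclei. Myocd, the coactivator that drives smooth muscle genes, had 443 CPM in DNp63cKO and 423 CPM in control cycling nuclei, against 104 and 72.3 CPM in epithelial nuclei. Markers of urothelium were also present: their 16 genes summed to 6878 CPM in DNp63cKO and 5498 CPM in control cycling nuclei, which is 22.0% and 18.6% of the level in epithelial nuclei. In non-cycling nuclei that level was 27.8% in DNp63cKO and 27.4% in control, so urothelial RNA was counted in mesenchymal nuclei whether cycling or not. Col3a1 and Myocd are rule genes, so a level above that of epithelial nuclei follows from the choice of nuclei and supports nothing. Non-cycling nuclei, chosen by the same genes, had 4173 CPM of Col3a1 in DNp63cKO and 5080 CPM in control. Their Myocd level was 465 CPM in DNp63cKO and 405 CPM in control.

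Cycling nuclei made up a similar part of the mesenchyme in both pools before depth was matched. They were 8.53% of mesenchymal nuclei (7.49 to 9.67) in DNp63cKO and 8.30% (7.32 to 9.35) in control. Of all nuclei that passed the filter they were 4.04% in DNp63cKO and 2.73% in control. The chance to see 2 rule genes rises with depth, and DNp63cKO nuclei were deeper. Among mesenchymal nuclei of 500 to 1000 UMIs, 5.16% (3.94 to 6.61) were cycling in DNp63cKO and 4.93% (3.97 to 6.06) in control, and among those of 2000 UMIs or more, 23.9% (19.5 to 28.7) and 23.7% (18.6 to 29.5). Between 1000 and 2000 UMIs the share was 7.11% (5.68 to 8.77) in DNp63cKO and 10.5% (8.57 to 12.6) in control.

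After thinning to a common depth, of 1000 or of 500 UMIs, the DNp63cKO share was the lower. Among the depth bins above it was lower only between 1000 and 2000 UMIs. The intervals of the 2 shares overlap, but they are not an interval of the difference, which was not tested. After each mesenchymal nucleus of at least 1000 UMIs was thinned to 1000, 81 of 1477 (5.48%, 4.38 to 6.77) were cycling in DNp63cKO and 94 of 1186 (7.93%, 6.45 to 9.61) in control, a difference of -2.44 percentage points. Without thinning, the same nuclei gave 11.1% in DNp63cKO and 13.2% in control. Thinning left out 1125 DNp63cKO and 1743 control nuclei. Thinning all mesenchymal nuclei to 500 UMIs, a setting chosen after seeing the data, left out none and gave 2.84% (2.24 to 3.56) in DNp63cKO and 3.28% (2.66 to 3.99) in control. Over 10 alternatives the difference ranged from -2.44 to 1.08 points and kept its positive sign in 3, so the data fix no direction. For scale, epithelial nuclei with at most 1 mesenchymal rule gene had 2 or more cycling genes in 11.3% of DNp63cKO and 9.29% of control, and in 8.44% and 5.91% after thinning to 1000 UMIs.

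**Figure D1:**
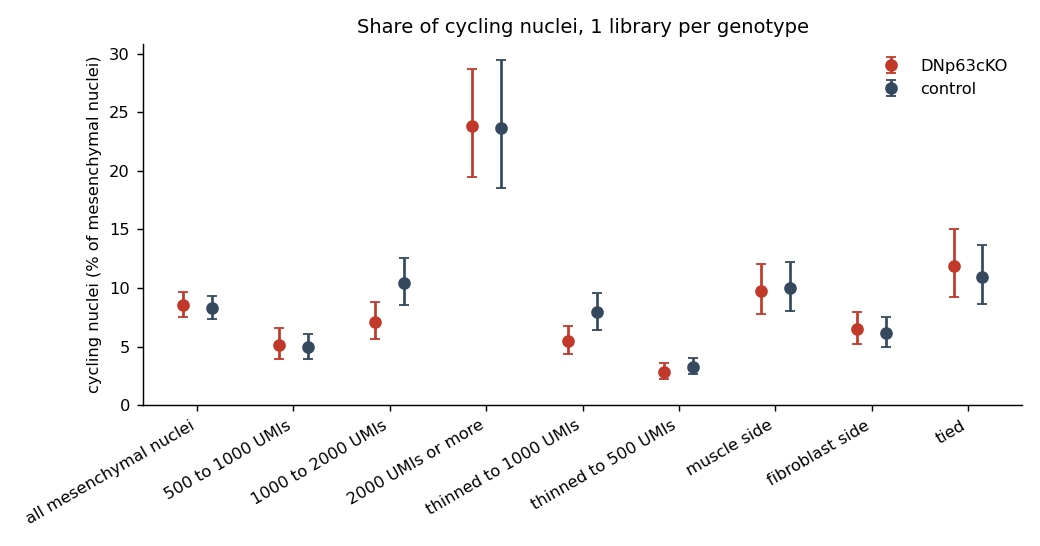
Points are the percentage of mesenchymal nuclei that were cycling, with exact binomial 95% intervals, in DNp63cKO (red) and control (dark) libraries, 1 library each. The pair is close over all nuclei at 8.53% and 8.30%, DNp63cKO is lower at 1000 to 2000 UMIs and after thinning to 1000 UMIs, and the muscle side lies above the fibroblast side in both.

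Cycling nuclei were found on both the muscle and the fibroblast side of the mesenchyme. A nucleus was put on the muscle side when it had a UMI of more of 5 muscle rule genes than of 5 fibroblast rule genes, on the fibroblast side in the opposite case, and was otherwise tied. On the muscle side 75 nuclei (9.75%, 7.75 to 12.1) were cycling in DNp63cKO and 86 (9.99%, 8.07 to 12.2) in control. On the fibroblast side 86 (6.51%, 5.24 to 7.98) were cycling in DNp63cKO and 89 (6.15%, 4.97 to 7.52) in control, and among ties 61 (11.9%, 9.24 to 15.0) and 68 (10.9%, 8.59 to 13.7). The fibroblast side therefore held 38.7% of cycling against 53.4% of non-cycling nuclei in DNp63cKO, and 36.6% against 52.4% in control. The side of many nuclei rests on 1 gene, as 79 cycling nuclei in DNp63cKO and 79 in control had a margin of 1. After thinning to 1000 UMIs the muscle side had 5.33% (3.45 to 7.83) in DNp63cKO and 8.45% (5.77 to 11.8) in control, while the fibroblast side had 5.85% (4.25 to 7.83) and 6.17% (4.31 to 8.52). At 1000 UMIs the muscle side was thus not above the fibroblast side in DNp63cKO. At 500 UMIs the muscle side had 2.73% (1.70 to 4.14) in DNp63cKO and 4.07% (2.85 to 5.61) in control, and the fibroblast side 2.42% (1.66 to 3.40) and 2.35% (1.63 to 3.27).

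Replication and mitosis genes that the rule did not use separated by the number of rule genes a nucleus had. The 53 genes of the mitosis list, such as cyclins, kinetochore and spindle genes, summed to 1280, 2681, 4990 and 7870 CPM in DNp63cKO nuclei with 0, 1, 2 and 3 or more rule genes. In control nuclei the same sums were 1328, 3394, 5091 and 6654 CPM, so both libraries climb at each step. The 46 genes of the DNA replication list summed to 1574, 2278, 3006 and 2674 CPM in DNp63cKO and 1850, 2586, 3429 and 2801 CPM in control, which is highest at 2 rule genes. Nuclei with exactly 1 rule gene thus lie between the non-cycling and the cycling nuclei, as do their median depths.

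**Figure D2:**
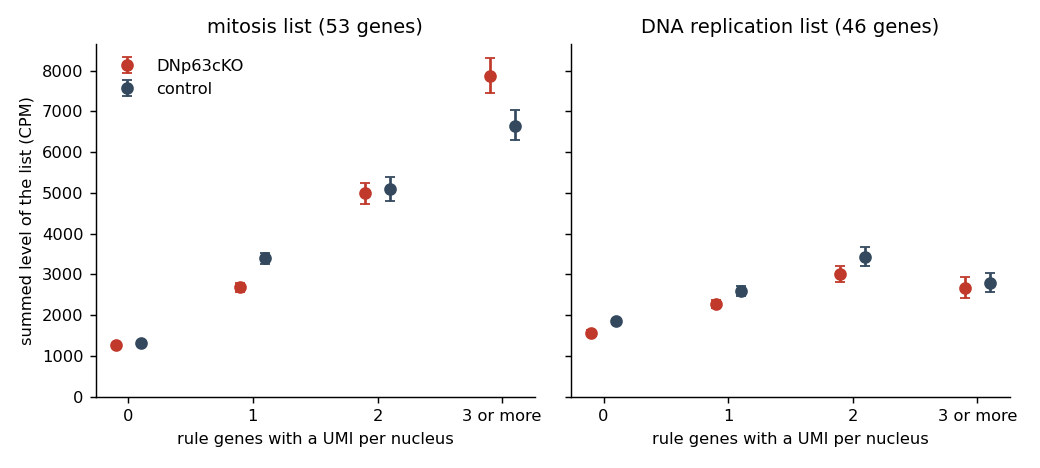
Summed level (CPM) of the mitosis list and of the DNA replication list in mesenchymal nuclei with 0, 1, 2 and 3 or more of the 5 cycling rule genes, with exact Poisson 95% intervals, in DNp63cKO (red) and control (dark). Mitosis genes climb to 7870 CPM in DNp63cKO and 6654 CPM in control, and replication genes are highest at 2 rule genes.

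Most cycling nuclei had transcripts of both phases. In cycling nuclei thinned to 1000 UMIs, 54.9% (46.9 to 62.6) in DNp63cKO and 57.3% (49.2 to 65.2) in control had 2 or more UMIs of each list. Mitosis genes alone reached 2 UMIs in 26.2% of DNp63cKO and 23.6% of control cycling nuclei, replication genes alone in 18 of 164 and 20 of 157, and neither in 7.93% and 6.37%. Unthinned, both lists reached 2 UMIs in 73.4% of DNp63cKO and 75.3% of control cycling nuclei. In non-cycling nuclei thinned alike, 27.7% in DNp63cKO and 28.7% in control had 2 or more mitosis UMIs, and 348 of 959 and 347 of 755 had 2 or more replication UMIs. Free RNA was not separated from the nuclei's own in these shares, and its part in them was not tested.

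Cycling nuclei differed from non-cycling nuclei first in the machinery of division, the kind of genes by which they were chosen. Over the 10808 genes with 30 or more UMIs summed over cycling and non-cycling nuclei in each library, 601 (5.56%) were 1.5-fold or more higher in cycling nuclei of both libraries and 517 (4.78%) lower, on the scale of CPM + 5. All 53 mitosis genes were among the higher, and since the rule chose nuclei by genes of the same kind, nothing is read from that count. Their sum was 2.25 higher on the log2 scale in DNp63cKO (2.17 to 2.32) and 2.12 in control (2.04 to 2.20). Kifc1, a spindle motor that was not a rule gene, was up by 2.66 in DNp63cKO and 2.85 in control. Neil3 (chr8:53586867-53639065), a DNA glycosylase of S and G2 phase, had 297 CPM in cycling and 47.6 CPM in non-cycling nuclei of DNp63cKO, and 304 and 45.7 CPM in those of control. Ccnb2 (chr9:70407692-70421547), the cyclin B2 whose promoter is printed above, had 242 CPM in cycling and 40.2 CPM in non-cycling nuclei of DNp63cKO, and 257 and 46.7 CPM in control. Racgap1 and Ect2, which place the cleavage furrow, were up by 2.55 and 2.12 in DNp63cKO and by 2.19 and 2.17 in control. Foxm1, a transcription factor of the G2 and M programme, was up by 2.16 in DNp63cKO and 2.21 in control. Coordinates are GENCODE M21 gene bounds on GRCm38.

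Genes of the earlier cycle phases moved less than mitosis genes. The rule chose nuclei by genes of the mitotic kind, which favours this order, so nothing is read from it. Of 42 replication genes compared, 16 were 1.5-fold or more higher in both libraries and none was lower, against 5.56% and 4.78% of all genes. Their list summed to 2881 CPM in cycling and 1574 CPM in non-cycling nuclei of DNp63cKO, and to 3152 and 1850 CPM in control. E2f7 and E2f8, repressors that close S phase, were up by 2.01 and 1.53 in DNp63cKO and by 1.66 and 1.78 in control. The replication clamp gene Pcna had 181 CPM in cycling and 89.2 CPM in non-cycling nuclei of DNp63cKO, and 178 and 104 CPM in control. The 6 MCM helicase genes Mcm2 to Mcm7, which act at the start of S phase, were higher by 0.10 (Mcm6) to 1.02 (Mcm3) in DNp63cKO and by 0.36 (Mcm3) to 0.60 (Mcm4) in control. Of 18 fork and repair genes compared, 7 passed the fold upward in both, against 5.56% of all genes. Among the 7, Brca1 was up by 1.84 in DNp63cKO and 1.51 in control and Fancd2 by 1.75 and 1.40.

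Among 13 G1 genes compared, Ccnd1 and Skp2 passed the fold upward in both libraries. Over all genes compared, 5.56% passed it upward in both and 4.78% downward. Ccnd1, the cyclin D1 that links growth signals to the cycle, had 231 CPM in cycling and 114 CPM in non-cycling nuclei of DNp63cKO, and 214 and 124 CPM in control. Of 18 CDK inhibitors and genes of rest compared, Cdkn2c and Cdkn2d passed it upward, both being INK4 inhibitors of the cyclin D kinases. Cdkn2c had 91.7 CPM in cycling and 14.5 CPM in non-cycling nuclei of DNp63cKO, and 76.6 and 17.5 CPM in control. Cdkn1b and Cdkn1c, inhibitors that hold cells at rest, were higher by 0.42 and 0.23 in DNp63cKO and by 0.43 and 0.14 in control, so neither was lower in cycling nuclei.

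Contractile genes were also higher in cycling nuclei. The 28 genes of the list summed to 23945 CPM in cycling and 16301 CPM in non-cycling nuclei of DNp63cKO, and to 29372 and 17477 CPM in control. Of 27 compared, 10 passed the fold upward in both libraries and none downward, against 5.56% and 4.78% of all genes compared. In DNp63cKO 19 of 28 were higher and 9 lower, and in control 23 of 27 were higher and 4 lower. Acta2, smooth muscle actin, had 4373 CPM in cycling and 1973 CPM in non-cycling nuclei of DNp63cKO, and 5482 and 2405 CPM in control. Myl9, Tagln and Actg2, further parts of the contractile apparatus, were up by 0.99, 0.89 and 0.91 in DNp63cKO and by 1.09, 0.86 and 0.93 in control. The channel and signalling genes Kcnma1 and Prkg1 lay the other way, at -0.47 and -0.39 in DNp63cKO and -0.62 and -0.44 in control. The summed difference was smaller within the muscle side, 0.11 in DNp63cKO and 0.32 in control, than within the fibroblast side, 0.47 and 0.65. Among ties it was largest, 0.79 in DNp63cKO and 0.84 in control. Deep nuclei weigh more in these sums: as a mean over nuclei the difference was 0.26 in DNp63cKO and 0.44 in control.

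Fibroblast and imprinted genes were lower in cycling nuclei. The fibroblast list, at 22 genes, summed to 5655 CPM in cycling and 7760 CPM in non-cycling nuclei of DNp63cKO, and to 6297 and 7654 CPM in control. Of its 22 genes 7 passed the fold downward in both libraries and none upward, against 4.78% and 5.56% of all genes compared. Svep1, a large adhesion protein of connective tissue, was at -1.41 in DNp63cKO and -1.42 in control. Dlk1, a paternally expressed growth regulator, was at -1.05 in DNp63cKO and -0.93 in control. The maternally expressed noncoding RNAs of the same imprinted domain were lower too: Meg3 had 1072 CPM in cycling and 2218 CPM in non-cycling nuclei of DNp63cKO, and 437 and 1658 CPM in control. Rian was at -0.97 in DNp63cKO and -1.03 in control, and Mirg (chr12:109729764-109749460), at -1.69 and -1.68. Igf1 was at -0.73 in DNp63cKO and -0.79 in control and H19 at -0.66 and -0.55. The lower genes outside the lists included the surface peptidase Anpep, the metalloprotease Adam33, the guidance ligand Sema3d and the drug-metabolizing enzymes Fmo1 and Fmo2, at -1.26 to -1.48 in DNp63cKO and -1.44 to -1.61 in control. Within sides, the fibroblast list was at -0.45 in DNp63cKO and -0.26 in control on the fibroblast side, and at 0.29 and 0.50 on the muscle side. Among ties it was at 0.16 in DNp63cKO and 0.62 in control, so it was lower on the fibroblast side only. The imprinted list was at -0.59 in DNp63cKO and -0.76 in control on the fibroblast side and at -0.44 and -0.21 among ties. On the muscle side it was at -0.05 (-0.19 to 0.09) in DNp63cKO and -0.26 in control.

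Signals to the mesenchyme gave a mixed picture. Among transcription factors 4 of 28, namely Tshz2, Foxp2, Sox9 and Foxd1, passed the fold downward in both libraries and none upward, against 4.78% and 5.56% of all genes compared. Tbx18, which specifies ureter mesenchyme, was at -0.03 in DNp63cKO and 0.08 in control. Of 16 Wnt genes compared, 2 passed the fold upward in both libraries and 1 downward, and of 14 BMP genes 1 upward and 1 downward. The secreted Wnt modulator Sfrp2 had 540 CPM in cycling and 278 CPM in non-cycling nuclei of DNp63cKO, and 626 and 242 CPM in control. Id2, a BMP-responsive inhibitor of differentiation factors, had 745 CPM in cycling and 425 CPM in non-cycling nuclei of DNp63cKO, and 741 and 450 CPM in control. These 2 genes do not stand for their lists. In DNp63cKO 10 Wnt genes were higher and 7 lower, and in control 9 higher and 10 lower. BMP genes were 7 higher and 7 lower in DNp63cKO, and 5 higher and 10 lower in control.

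**Figure D3:**
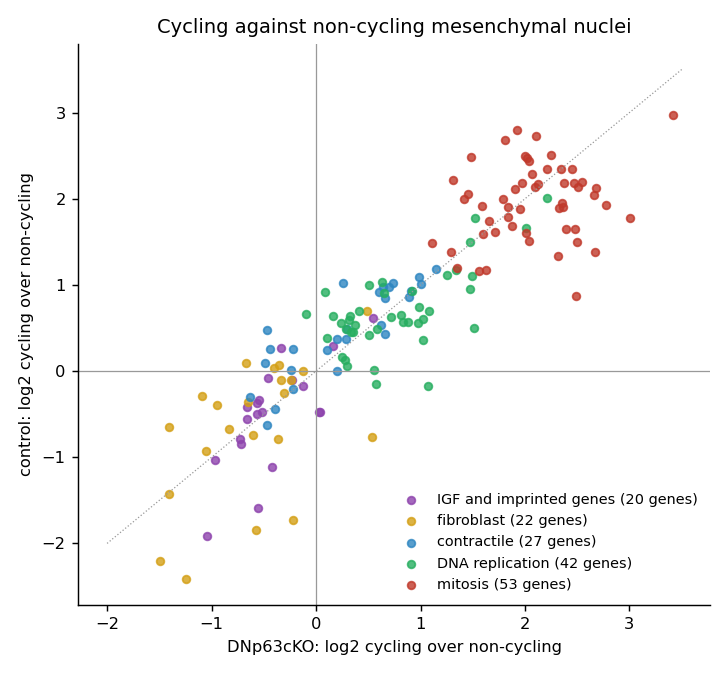
Each point is a gene of 5 lists, with its log2 ratio of cycling over non-cycling mesenchymal nuclei in DNp63cKO on the horizontal and in control on the vertical axis, the dotted line marking equal ratios. All 53 mitosis genes lie at the upper right, replication genes between them and 0, contractile genes on both sides of 0, and most fibroblast and imprinted genes at the lower left.

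Between the genotypes, cycling nuclei of DNp63cKO had lower levels of contractile and matrix genes than those of control, while division genes were close. Over 7395 genes with 30 or more UMIs summed over the cycling nuclei of both libraries, 576 (7.79%) were 1.5-fold or more higher in DNp63cKO and 526 (7.11%) lower, and the median log2 ratio was -0.01. Single genes are given with their counting intervals, since many of them rest on few UMIs. In non-cycling nuclei, which hold more UMIs, 3.30% of 12415 genes were past the fold upward and 3.69% downward.

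The mitosis list summed to 6072 CPM in DNp63cKO and 5779 CPM in control cycling nuclei, a log2 ratio of 0.07 (-0.01 to 0.15), which turned to -0.15 when 1 rule gene was enough. Of its 53 genes 32 were higher, 5 of them past the fold, and 21 lower, 2 past it. Over all genes compared, 7.79% were past it upward and 7.11% downward. Arhgap11a, a regulator of late mitosis, had 93.9 CPM in DNp63cKO and 36.0 CPM in control (1.27, 0.53 to 2.31), and Kif20a, a motor of the cleavage furrow, 48.1 CPM in DNp63cKO and 94.6 CPM in control (-0.91, -1.79 to -0.20). These genes thus lie on both sides of 0. The replication list summed to 2881 CPM in DNp63cKO and 3152 CPM in control cycling nuclei, at -0.13 (-0.24 to -0.02), with 10 of 35 genes compared higher and 25 lower. In non-cycling nuclei the same list was at -0.23 (-0.30 to -0.17), with 6 genes higher and 40 lower of 46. The G1 list was at -0.05 (-0.21 to 0.11) in cycling and -0.34 (-0.42 to -0.26) in non-cycling nuclei. There Ccnd2, cyclin D2, had 171 CPM in DNp63cKO and 358 CPM in control, and in cycling nuclei 221 and 259 CPM. Ccnd2 was high in epithelial nuclei, with 448 CPM in DNp63cKO and 1057 CPM in control, and the part of free RNA in its value was not tested.

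Contractile genes were lower in 23 of 26 compared and past the fold in 3, with none past it upward. Of all genes compared, 7.11% were past it downward and 7.79% upward. The list was at -0.29 (-0.33 to -0.26) in cycling nuclei and -0.10 (-0.12 to -0.08) in non-cycling nuclei. The high genes moved by small steps: Acta2 had 4373 CPM in DNp63cKO and 5482 CPM in control cycling nuclei (-0.33, -0.41 to -0.24), and Mylk, the myosin light chain kinase, 3661 and 4861 CPM (-0.41, -0.50 to -0.32). Cnn1, calponin, a late marker of smooth muscle differentiation, had 456 CPM in DNp63cKO and 691 CPM in control (-0.59, -0.86 to -0.34). Synm, an intermediate filament protein, had 28.4 CPM in DNp63cKO and 67.5 CPM in control (-1.12, -2.31 to -0.27). Pgm5 and Itga8, which sit at membrane attachments of muscle cells, were at -0.53 and -0.62 in cycling nuclei and at 0.05 and 0.33 in non-cycling nuclei, and Pgm5 turned to 0.0042 when 1 rule gene was enough. By side, the list was at -0.32 (-0.38 to -0.27) among muscle-side, -0.26 (-0.35 to -0.18) among fibroblast-side and -0.16 (-0.22 to -0.10) among tied cycling nuclei. The urothelium list differed the other way in the same nuclei, with 6878 CPM in DNp63cKO and 5498 CPM in control (0.32, 0.25 to 0.40), and its part in these ratios is covered only by the subtraction of an epithelial profile, which gave -0.24 for the contractile list.

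Matrix genes were lower in 21 of 25 and past the fold in 5, none upward, against 7.11% of all genes downward and 7.79% upward. They summed to 8197 CPM in DNp63cKO and 9967 CPM in control cycling nuclei (-0.28, -0.35 to -0.22). In non-cycling nuclei the list was at -0.03. Eln, elastin, had 80.8 CPM in DNp63cKO and 149 CPM in control cycling nuclei (-0.84, -1.50 to -0.28), and was at -0.67 in non-cycling nuclei. Basement membrane genes were among the lower: Col4a1, a type IV collagen chain, had 721 CPM in DNp63cKO and 1137 CPM in control (-0.65, -0.86 to -0.45), and Lamc1, a laminin chain, 240 and 394 CPM (-0.70, -1.07 to -0.36). Col6a2, a type VI collagen chain, had 212 CPM in DNp63cKO and 358 CPM in control (-0.74, -1.14 to -0.38). Fbn2, fibrillin 2, and Postn, periostin, lay the other way at 0.32 and 0.19. The fibroblast list was at -0.16 (-0.23 to -0.08) in cycling and 0.02 (-0.01 to 0.05) in non-cycling nuclei, and turned to 0.073 in cycling nuclei with no epithelial or endothelial rule gene. Within it, Ebf1, a transcription factor, had 138 UMIs in DNp63cKO and 67 in control (0.98, 0.57 to 1.44).

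Hedgehog pathway genes did not move together. Of 11 compared, Hhip, Bmp4 and Smoc1 were past the fold and lower in DNp63cKO, and none was past it upward. The shares over all genes compared were 7.11% downward and 7.79% upward. Hhip, a membrane protein that binds the ligand and is itself a target, had 87.4 CPM in DNp63cKO and 158 CPM in control cycling nuclei (-0.82, -1.45 to -0.27), and 64.5 and 131 CPM in non-cycling nuclei. It had a UMI in 29 cycling nuclei of DNp63cKO and 52 of control. Ptch1, the receptor and a target, had 157 CPM in DNp63cKO and 236 CPM in control (-0.57, -1.04 to -0.14), just short of the fold, and 143 and 229 CPM in non-cycling nuclei. Bmp4, a signal of ureter mesenchyme that hedgehog maintains, had 69.9 CPM in DNp63cKO and 119 CPM in control (-0.73, -1.45 to -0.11), while in non-cycling nuclei it had 67.7 and 70.7 CPM. Smoc1, a secreted matrix protein that modulates BMP signals, had 26.2 CPM in DNp63cKO and 51.8 CPM in control (-0.86, -2.12 to 0.08). It rests on 12 and 23 UMIs, and its interval includes 0. The target Gli1 had 83.0 CPM in DNp63cKO and 67.5 CPM in control (0.28, -0.43 to 1.04), and the transducers Smo, Gli2, Gli3 and Boc lay between 0.06 and 0.29. The list's sum (-0.27, -0.47 to -0.06) and its median (0.06) therefore differ in sign, and the sum was -0.010 in nuclei with 3 or more rule genes.

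The transcription factors that pattern the mesenchyme were close in level, 13 of 24 higher and 11 lower with 1 past the fold. That gene was Foxf1, a forkhead factor of visceral mesenchyme that hedgehog maintains, with 65.5 CPM in DNp63cKO and 128 CPM in control cycling nuclei (-0.92, -1.66 to -0.31) and 50.9 and 52.3 CPM in non-cycling nuclei. Of all genes compared, 7.11% were past the fold downward and 7.79% upward, so nothing is read from 1 of 24. Tbx18 had 553 CPM in DNp63cKO and 518 CPM in control. BMP genes were at -0.07 (-0.19 to 0.05) in sum, and Bmpr1a, a receptor, had 175 CPM in DNp63cKO and 270 CPM in control (-0.61, -1.06 to -0.21), a ratio that turned to 0.29 among the 25 DNp63cKO and 23 control nuclei with Y-linked and no Xist UMIs. Wnt genes were at -0.12 (-0.25 to 0.01). Growth factors and receptors were at 0.14 (0.01 to 0.26), with none of 22 past the fold, against the same shares of all genes. Immediate early genes, which respond fast to stimuli and to tissue handling, were at 0.13 (-0.06 to 0.32) in sum, which turned to -0.16 among nuclei with Y-linked and no Xist UMIs. Of 10 compared, 4 were past the fold upward, against 7.79% of all genes compared. One of the 4 was Dusp1, with 59.0 CPM in DNp63cKO and 24.8 CPM in control (1.10, 0.19 to 2.41). The others had intervals that include 0: Zfp36 (0.79, -0.02 to 1.81), Ier2 (0.65, -0.09 to 1.54) and Ier3 (0.62, -0.29 to 1.72).

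Imprinted and IGF genes summed to 3853 CPM in DNp63cKO and 3350 CPM in control cycling nuclei (0.20, 0.10 to 0.30). Of 18 compared, 3 were past the fold upward and 1 downward, against 7.79% and 7.11% of all genes compared. The median was 0.02, with 11 higher and 7 lower. Meg3 alone held 491 of the list's 1764 UMIs in DNp63cKO and 194 of 1488 in control. By side, the sum was at 0.27 among muscle-side, 0.39 among fibroblast-side and -0.30 (-0.49 to -0.11) among tied cycling nuclei. Meg3 (chr12:109541001-109571726) had the largest ratio of the 18, with 1072 CPM in DNp63cKO and 437 CPM in control (1.29, 1.05 to 1.54). It had a UMI in 131 of 222 DNp63cKO and 88 of 243 control cycling nuclei, and at most 50 UMIs in 1 nucleus of DNp63cKO and 11 of control. In non-cycling nuclei it had 2218 CPM in DNp63cKO and 1658 CPM in control. Igfbp5, a secreted IGF binding protein, had 80.8 CPM in DNp63cKO and 187 CPM in control cycling nuclei (-1.16, -1.81 to -0.63), but was higher in epithelial nuclei, reaching 255 CPM in those of DNp63cKO and 359 CPM in those of control. After subtraction of an epithelial profile its ratio was -1.93.

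**Figure D4:**
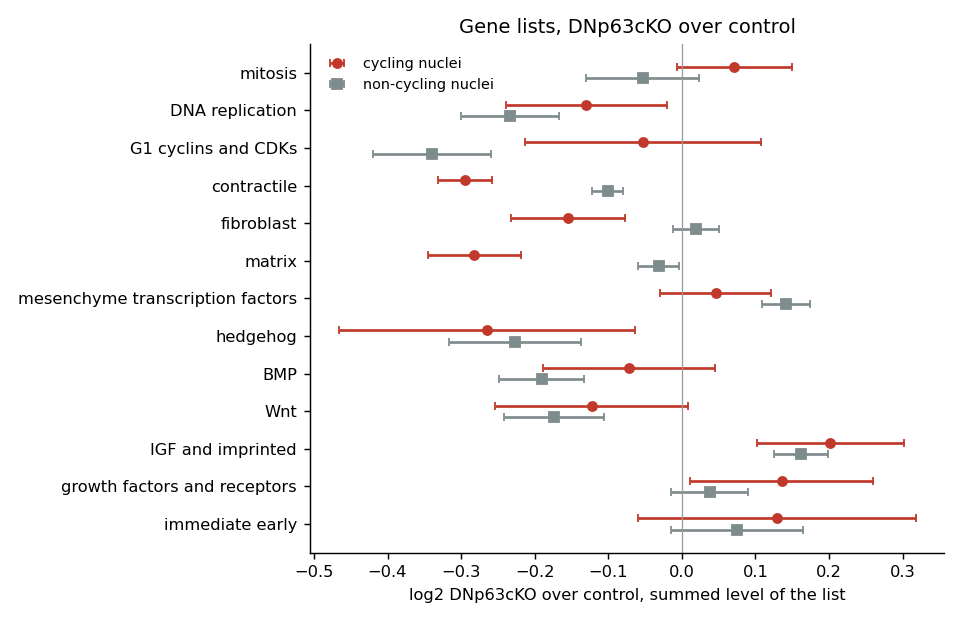
Log2 ratio of DNp63cKO over control of the summed level of each gene list, with exact 95% intervals for counting error, in cycling nuclei (red circles) and non-cycling nuclei (grey squares). Contractile and matrix lists lie at -0.29 and -0.28 in cycling nuclei and at -0.10 and -0.03 in non-cycling nuclei, and the mitosis list lies near 0 in both.

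**Figure D5:**
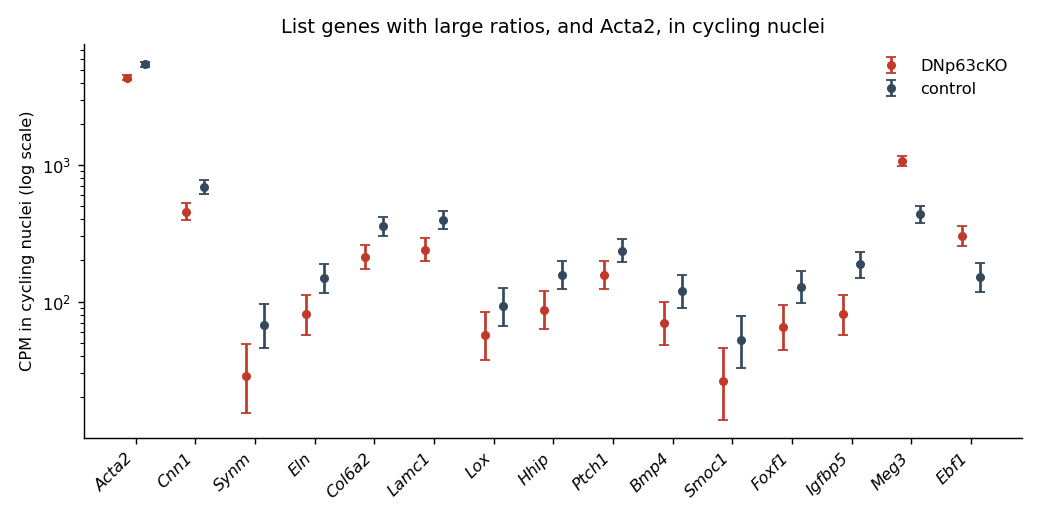
Level in cycling nuclei (CPM, log axis) of genes with large ratios in their list and of Acta2, with exact Poisson 95% intervals, in DNp63cKO (red) and control (dark). Meg3 and Ebf1 are higher in DNp63cKO, and the other 13 genes are lower.

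Among genes that had 50 or more CPM in a library, 50 or more UMIs over both and a level at least that of epithelial nuclei in the library where they were higher, the 10 highest and 10 lowest ratios were mostly small counts. Enpep, a surface peptidase, was the lowest of these, with 30.6 CPM in DNp63cKO and 106 CPM in control (-1.64, -2.77 to -0.91), and had a UMI in 12 and 32 cycling nuclei. Efnb1, an ephrin ligand, had 34.9 CPM in DNp63cKO and 108 CPM in control (-1.50, -2.54 to -0.79), and was at -0.79 in non-cycling nuclei. Lepr, the leptin receptor, had 41.5 CPM in DNp63cKO and 94.6 CPM in control, but was at 0.26 in non-cycling nuclei. At the other end, Rbfox1, a splicing factor of neurons and muscle, had 48 UMIs in DNp63cKO and 4 in control, 40 of those in DNp63cKO in 1 nucleus, and Mgat4c had 42 UMIs in DNp63cKO and 13 in control, 23 of those in DNp63cKO in 1 nucleus, and Mgat4c turned to -0.18 in nuclei with 3 or more rule genes. In non-cycling nuclei Mgat4c had 160 CPM in DNp63cKO and 38.7 CPM in control (1.92), so its difference there was in the same direction. Atp6v1b2, a subunit of the proton pump of lysosomes, was spread over more nuclei, 49 of DNp63cKO and 20 of control, with 131 and 51.8 CPM (1.26, 0.62 to 2.10), and was at 0.04 in non-cycling nuclei. In epithelial nuclei Atp6v1b2 had 129 CPM in DNp63cKO and 115 CPM in control.

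Markers of other cell types moved with the genotype in the same nuclei. Macrophage genes summed to 186 CPM in DNp63cKO and 36.0 CPM in control cycling nuclei, where Ptprc, C1qb and Cd68 were at 0, and 25 of their 85 UMIs in DNp63cKO came from 1 nucleus. Mesothelium genes summed to 225 CPM in DNp63cKO and 87.8 CPM in control, with Lrrn4 at 0 in both, and Msln had 124 and 22.5 CPM, against 472 and 63.1 CPM in epithelial nuclei. Neuron genes summed to 345 CPM in DNp63cKO and 218 CPM in control, with Elavl3 and Chat at 0 in both, and pericyte genes to 544 and 732 CPM. Endothelial genes (393 and 414 CPM) and glial genes (107 and 106 CPM) were alike in sum. Of 10 nephron genes 7 were at 0 in DNp63cKO and 8 in control, where a count of 0 allows up to 6.55 and 6.75 CPM. Without nuclei that had 3 or more genes of a blood, nerve, endothelial, mesothelial or nephron list, the contractile list was at -0.31, the matrix list at -0.25 and the hedgehog list at -0.24, a setting chosen after seeing the data.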

How the data were processed

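Nuclear RNA of pooled newborn mouse ureters was sequenced with 1 single-nucleus library per genotype. The authors deposited raw UMI counts per gene and nucleus, with no normalization. The submitters' processing notes list, without roles, the build mm10, Seurat 4.0.5 under R 4.0.5, STARsolo and STAR 2.7.11a. What they did for annotation, barcode filter and introns is not given in the sources used here. From these counts, nuclei of at least 300 genes and no more than 5% mitochondrial UMIs were classed by the rule, and UMIs were summed per library and class and divided by the class total (CPM). Ratios of single genes are log2 with 5 CPM added to both sides, and gene counts and medians cover genes with 30 or more UMIs in the classes compared. Ratios of summed lists take all genes of the list with no CPM added. Intervals of ratios have no CPM added either, so a gene's interval is not centred on its printed ratio. A fold of 1.5 stands in for a call, since 1 library per genotype allows no test. Intervals are exact 95% Poisson, binomial or conditional binomial intervals and, like the floor of 3 counts, cover counting error only.

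Members and gene lists were chosen with earlier results of these data known. Genes were named by a rule: the rule genes, the 10 highest and 10 lowest ratios of DNp63cKO over control and the 12 highest and 10 lowest of cycling over non-cycling nuclei at 50 or more CPM and 50 or more UMIs, and up to 4 genes per list. Other genes of the lists, and Msln, were named after their values were seen, and some genes the rule names are not reported here. Scrublet's automatic threshold marked 0% of nuclei, so doublets were kept, and the 5% with the highest scores were left out as an alternative. The ratio calculation was tested on simulated data. Python 3.11.15, numpy 2.4.6, scipy 1.17.1, pandas 2.3.3, scanpy 1.11.5 and matplotlib 3.10.9 were used. Promoters came from RefSeq on GRCm38.p6 and gene bounds from GENCODE M21.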

Additional observations from a re-analysis of the deposited data

Results flagged for a closer look

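Haemoglobin and other erythroid genes went opposite ways in the 2 classes. Their summed level, as log2 of DNp63cKO over control, was 1.19 in cycling and -0.27 in non-cycling nuclei, and as log2 of cycling over non-cycling nuclei it was 1.13 in DNp63cKO and -0.33 in control. In DNp63cKO, 213 of the 578 erythroid UMIs of cycling nuclei came from 1 nucleus. The matrix list lay at -0.18 for cycling over non-cycling nuclei in DNp63cKO and at 0.074 in control. With 1 library per genotype, none of these differences was tested.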

How the results depend on the processing

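Under the 12 alternatives the summed DNp63cKO over control ratio in cycling nuclei kept its sign for the contractile list (-1.54 to -0.20), the matrix list (-0.82 to -0.14) and the hedgehog list (-0.64 to -0.010), and for the mitosis list (-0.15 to 0.82) under 11 of 12. With no epithelial or endothelial rule gene allowed, the control share was 6.83%, 328 genes were past the fold upward and 285 downward, contractile was -0.35, matrix -0.14 and the fibroblast list turned to 0.073. With 1 or more cycling genes the shares were 28.9% in DNp63cKO and 27.8% in control, mitosis was -0.15, contractile -0.20, matrix -0.17, and Pgm5 turned to 0.0042. With 3 or more they were 2.61% and 2.83%, with 382 genes upward, mitosis 0.24, contractile -0.37, hedgehog -0.010, and Mgat4c and Plk2 turned to -0.18 each. Genes upward and downward numbered 1247 and 1158 at 10 UMIs, 75 and 55 at 100 UMIs, and 319 and 290 with 20 CPM added. At 500 genes per nucleus the control share was 9.38%. Subtracting free RNA gave 868 genes downward and contractile -0.24. As a mean over nuclei, matrix was -0.22, and cycling over non-cycling was 2.54 in DNp63cKO and 2.45 in control for mitosis and 0.26 and 0.44 for contractile. Thinned to 1000 UMIs, the DNp63cKO share was 5.48%, the difference -2.44 points, mitosis 2.39 and 2.28 and contractile 0.37 and 0.55. Thinned to 500 UMIs, chosen after seeing the data, the shares were 2.84% and 3.28%. Among nuclei with Y-linked and no Xist UMIs (25 in DNp63cKO and 23 in control, all genes shifted by a median of -0.61), the control share was 10.1%, the difference -2.32 points, 64 genes were upward and 182 downward, mitosis was 0.82, contractile -1.54, matrix -0.82 and hedgehog -0.64, and replication turned to 0.61, Tmem43 to 0.071, Btg1 to 0.60, Clec3b to -3.54 and Bmpr1a to 0.29. The cause of these shifts was not tested. Without nuclei that had 3 or more genes of another cell type, also chosen after seeing the data, 182 DNp63cKO and 222 control cycling nuclei were left and the share difference was -0.43 points. Without cycling nuclei over 6000 UMIs, likewise chosen, contractile was -0.29, matrix -0.24 and hedgehog -0.37. No paired analysis was possible because each genotype has 1 library, and for the same reason no library could be left out.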
